A study of Mus musculus with 9 samples.

Results

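Transcripts of 10 genes that make, degrade, bind and sense retinoic acid were followed in the temporomandibular joint, where the lower jaw meets the skull, of mouse embryos at embryonic day 16.5. The genes were those of the synthesis enzymes Aldh1a1, Aldh1a2 and Aldh1a3, the breakdown enzymes Cyp26a1 and Cyp26b1, the nuclear receptors Rara, Rarb and Rarg, and the cellular binding proteins Crabp1 and Crabp2. Every probe set annotated to 1 of these symbols was taken, which gave 13 of the 45037 probe sets on the array that are not controls, and 10 of 18193 named genes. Aldh1a3 had 3 probe sets, Rarg had 2 and the other 8 genes had 1 each. The 9 arrays fell into 3 groups of 3: the condyle, which is the head of the lower jaw in the joint, the fossa, which is the skull's socket for it, and the whole embryo body, a mixture of all tissues that served for reference. The series gives no strain, genotype, treatment or sex, and all samples carry the same stage label and the same laser capture entry. The samples are called biological triplicates, but the embryo behind each is not given, so p-values cover no more than the spread among these arrays, which may be partly technical.

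Retinoic acid is made from retinol by a dehydrogenase step to retinaldehyde and then by the Aldh1a enzymes to the acid. It is cleared by Cyp26 hydroxylases, carried in the cytoplasm by the Crabp proteins, and acts through RAR receptors that bind DNA as partners of RXR receptors. In craniofacial skeletal development both excess and lack of retinoic acid disturb patterning, and Rarg is the RAR gene best known from cartilage. Rarb and Cyp26a1 are textbook targets that retinoic acid itself switches on, through a repeated response element near their start sites.

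Because those elements define the feedback genes of the pathway, the promoters of members were searched for them. RefSeq promoter windows of assembly GRCm38.p6, each 300 bases long from 250 before to 50 after a start site, were matched by symbol for 8 of the 10 members. Aldh1a3 and Crabp2 were the others. The search was for any of the 6-base cores AGGTCA and AGTTCA, or GGGTCA and GGTTCA, placed as a direct repeat of 2 cores with 5 unspecified bases between, on both strands. Rarb and Cyp26a1 held such a repeat, as did 0.0974% of all 32851 promoter windows. No member held a repeat with a spacing of 1 base (0.222% of windows) or 2 bases (0.268%). A single core, which also counts each core inside a repeat, was in windows of 5 members and in 43.7% of all windows. The promoters of the repeat-bearing pair are shown with the cores of the repeat in capitals (a further single core in the Rarb window stays in lower case), followed by those of Crabp1 and of the upstream start of Rarg, where a single core is in capitals. Rarg and Crabp1 were the members that passed the test for any difference among the 3 groups, 2 of 10 beside 27.1% of all genes.
Rarb, chr14:16575427-16575726, minus strand: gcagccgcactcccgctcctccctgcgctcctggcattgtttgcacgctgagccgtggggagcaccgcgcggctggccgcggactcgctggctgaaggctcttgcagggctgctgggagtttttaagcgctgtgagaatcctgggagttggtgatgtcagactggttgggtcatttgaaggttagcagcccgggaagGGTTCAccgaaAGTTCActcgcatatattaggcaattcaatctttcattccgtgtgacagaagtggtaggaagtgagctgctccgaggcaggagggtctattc
Cyp26a1, chr19:37697558-37697857, plus strand: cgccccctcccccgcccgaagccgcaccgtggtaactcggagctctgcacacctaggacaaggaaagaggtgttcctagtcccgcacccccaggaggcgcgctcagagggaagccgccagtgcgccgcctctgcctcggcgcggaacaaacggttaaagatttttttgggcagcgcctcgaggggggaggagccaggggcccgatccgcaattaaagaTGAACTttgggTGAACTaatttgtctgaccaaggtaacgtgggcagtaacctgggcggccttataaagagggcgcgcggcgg
Crabp1, chr9:54764498-54764797, plus strand: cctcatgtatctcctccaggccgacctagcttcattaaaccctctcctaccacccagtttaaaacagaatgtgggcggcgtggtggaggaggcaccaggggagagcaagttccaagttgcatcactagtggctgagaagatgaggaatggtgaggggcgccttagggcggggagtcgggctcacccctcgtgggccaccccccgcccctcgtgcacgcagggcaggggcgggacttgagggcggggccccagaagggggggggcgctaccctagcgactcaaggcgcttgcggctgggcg
Rarg, chr15:102257473-102257772, minus strand: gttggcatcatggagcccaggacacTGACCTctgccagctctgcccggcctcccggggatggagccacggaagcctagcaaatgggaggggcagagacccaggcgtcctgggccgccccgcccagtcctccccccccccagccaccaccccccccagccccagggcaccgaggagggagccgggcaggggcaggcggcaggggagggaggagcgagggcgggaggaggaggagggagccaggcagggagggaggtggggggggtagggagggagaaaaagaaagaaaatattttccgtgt
In Rarb the repeat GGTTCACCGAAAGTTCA lay from -53 to -37 relative to the start site, and this start lies inside the annotated span of the gene. In Cyp26a1 the repeat lay from -32 to -16 and reads on the opposite strand. The upstream Rarg window held a single core on the opposite strand at -225 to -220, and the Crabp1 window held none. A match is a description of letters and shows no binding.

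Values are log2 of the deposited probe set intensities. Each array was given its own background limit, set by the brightest of its 27 Bacillus subtilis control probe sets. A gene counted as at background in a group if none of the 3 arrays exceeded that limit. The limits ran from 2.87 to 3.52, with the highest on fossa array 1, where 30.3% of probe sets lay above background against 37.4% to 46.9% on the other arrays. The fossa arrays were dimmer in their upper range, with 75th percentiles of 4.03 to 4.29 (log2) against 4.80 to 4.90 in condyle and 4.35 to 4.54 in whole body. All 8 cartilage markers were above background in both joint tissues, and their summed intensity was 11116 to 21498 in condyle, 9564 to 27579 in the fossa and 1144 to 1188 in whole body. The sum of 10 epithelial markers was 7863 to 20084 in condyle, 10253 to 15071 on fossa arrays 1 and 3 but 598 on fossa array 2, and 6542 to 6801 in whole body. Dsp and Perp were the brightest of these markers on every array and weigh most in this linear sum. Krt8, Krt18 and Epcam had lower means in condyle than in whole body (log2 differences of -0.69, -1.56 and -0.20), while the other markers had higher ones. In a bulk sample, fewer cells of a type and less RNA per cell cannot be told apart.

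Rarg, Crabp1 and Aldh1a3 were higher in condyle than in fossa, by 2.05 ± 0.23 (SE), 1.66 ± 0.28 and 1.76 ± 0.41 on the log2 scale. These 3 of 10 members passed upward in the limma fit (Benjamini-Hochberg adjusted p under 0.05 over all 45037 probe sets), beside 16.2% of all genes called higher, 2.82% called lower and 19% called in either direction. None passed downward, and at an unadjusted p under 0.05 there were 4 higher and 0 lower. The median difference of the 10 members was 0.84, beside 0.21 for all genes. Rara, Rarb and Cyp26a1 were at background on every array, so no difference is given for them. Against whole body, Rarg alone passed in either joint tissue. It was 1 of 10 higher in condyle, beside 7.05% of all genes higher and 2.91% lower, and 1 of 10 lower in fossa, beside 15.9% lower, 4.2% higher and 20.1% in either direction. At an unadjusted p under 0.05, 3 members were higher and 1 lower in condyle, and 0 higher and 3 lower in fossa. After quantile normalization, which aligns the arrays' distributions, Rarg was the 1 member that passed between condyle and fossa.

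**Figure D1:**
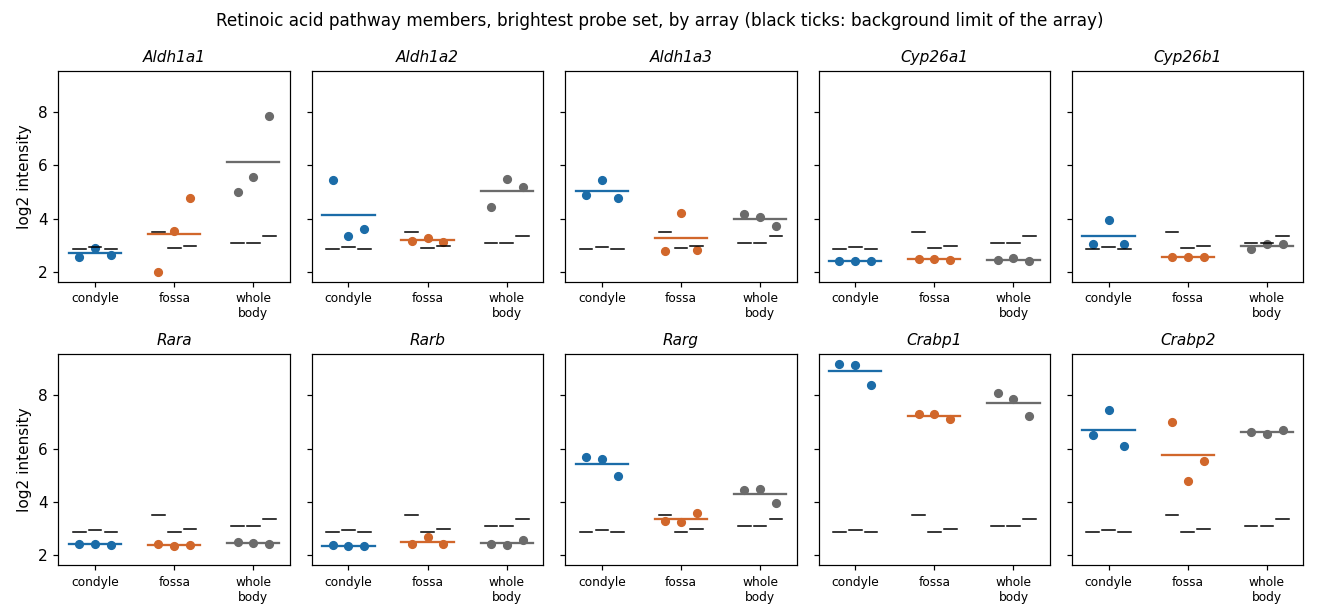
Log2 intensity of the brightest probe set of each member on each of the 9 arrays, with group means as lines and the background limit of each array as a black tick. Rarg and Crabp1 sit higher on every condyle array than on any fossa array, while Rara, Rarb and Cyp26a1 lie under the limit throughout.

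The receptors differed from each other in whether they were detected at all. Rarg (chr15:102234938-102257522, GRCm38.p6), which encodes retinoic acid receptor gamma, measured 5.67, 5.63 and 4.97 on condyle arrays 1, 2 and 3. It measured 3.29, 3.26 and 3.58 on the fossa arrays and 4.45, 4.48 and 3.96 on the whole body arrays. The 3 groups did not overlap: every condyle array lay above every whole body array, and every fossa array lay under them. Such a gap is common here, as 49.7% of all genes had groups that did not overlap between condyle and fossa, 53.2% between condyle and whole body and 42.2% between fossa and whole body. Fossa arrays 2 and 3 were above their background limits and fossa array 1 was not.

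The group means of Rarg were 5.42 ± 0.39 (SD, n = 3) in condyle, 3.38 ± 0.18 in the fossa and 4.30 ± 0.29 in whole body. Condyle exceeded fossa 4.13-fold (limma adjusted p = 0.00245), and this difference kept an adjusted p between 0.00251 and 0.0112 when any 1 array was left out. It was 1.44 with an adjusted p = 0.0171 after quantile normalization. Against whole body, Rarg was higher in condyle by 1.12 ± 0.23 (adjusted p = 0.0364, 2.18-fold) and lower in fossa, with a difference of -0.92 ± 0.23 (adjusted p = 0.0359, 1.90-fold). Both calls against whole body depended on single arrays and on the processing. The condyle difference passed without condyle array 3 (1.35, adjusted p = 0.0206) and missed the threshold without any other single array, with an adjusted p of up to 0.111. The fossa difference passed without condyle array 1, condyle array 3 or whole body array 3 and missed without any of the other 6 arrays, with an adjusted p of up to 0.103. After quantile normalization the adjusted p was 0.263 for condyle and 0.106 for fossa, and with the common floor at the highest background limit it was 0.0643 and 0.178. With only the condyle and whole body arrays fitted, the condyle difference had an adjusted p = 0.0876.

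The second Rarg probe set did not report the gene on most arrays. It lay between 2.25 and 2.71 on the condyle and fossa arrays, all at background, and was above the limit on whole body array 2 only, at 3.60. Both Rarg probe sets carry a name ending that marks a match to several transcripts of 1 gene. Averaging both gave differences of 0.93 between condyle and fossa (adjusted p = 0.0359), 0.32 between condyle and whole body (adjusted p = 0.387) and -0.61 between fossa and whole body (adjusted p = 0.126), so the values above rest on the brighter probe set.

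Rara and Rarb encode receptors alpha and beta, and each was represented by 1 probe set. Rara measured 2.37 to 2.51 and Rarb 2.37 to 2.69 over the 9 arrays, each under the limit of its array. Expression of either gene was therefore not detectable with these probe sets, which does not show that the transcripts were absent. Rarb is also the member whose promoter carries the repeat shown above, as is Cyp26a1.

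Of the breakdown enzymes, Cyp26a1 measured 2.41 to 2.52 and was at background on all 9 arrays. Cyp26b1, the hydroxylase known for limiting retinoic acid in limb and skeletal tissue, measured 3.04, 3.95 and 3.07 in condyle, 2.58, 2.56 and 2.58 in the fossa and 2.88, 3.06 and 3.05 in whole body. The condyle arrays were the only ones above background, and condyle array 2 stood apart from the other two. Cyp26b1 was at least 1.16-fold higher in condyle than in fossa, which did not pass (adjusted p = 0.064), and at least 1.13-fold higher than in whole body (adjusted p = 0.326). Without condyle array 2 the measured difference from fossa was smaller, 0.49 in place of 0.78, and had an adjusted p = 0.011. Both sizes rest on fossa values at background. With the common floor at the highest background limit the difference over all arrays was 0.14 (adjusted p = 0.93).

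Of the synthesis enzymes, Aldh1a3 alone passed between condyle and fossa, and no Aldh1a gene passed against whole body on its brightest probe set. Aldh1a3 (chr7:66390892-66427477), known from epithelia and sensory placodes of the head, measured 4.88, 5.46 and 4.77 in condyle on its brightest probe set. It measured 2.78, 4.23 and 2.81 in fossa, where array 2 alone was above background, and 4.18, 4.07 and 3.73 in whole body. All condyle arrays lay above all others. The means were 5.04 ± 0.37 (SD, n = 3) in condyle, 3.27 ± 0.83 in the fossa and 3.99 ± 0.24 in whole body.

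Condyle exceeded fossa in Aldh1a3 by 1.76 ± 0.41 on the log2 scale (adjusted p = 0.0299), but with fossa largely at background this size rests on values near the limit. The call was kept without fossa array 2, whole body array 1 or whole body array 3 and was lost without any of the other 6 arrays (adjusted p = 0.0506 to 0.0907), and after quantile normalization (1.29, adjusted p = 0.139), with the common floor (1.28, adjusted p = 0.0719) and with only the arrays of both groups fitted (adjusted p = 0.0666). Against whole body Aldh1a3 did not pass, with differences of 1.04 ± 0.41 in condyle (adjusted p = 0.189) and -0.72 ± 0.41 in fossa (adjusted p = 0.28). Without fossa array 2, the fossa array with the highest Aldh1a3 value, these were 1.04 (adjusted p = 0.0474) and -1.20 (adjusted p = 0.0275). Neither passed without any other single array.

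**Figure D2:**
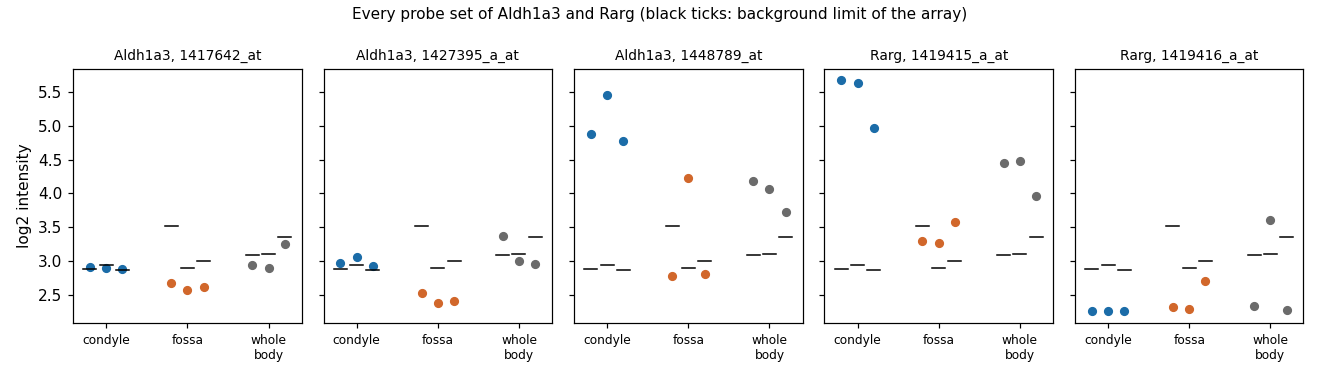
Log2 intensity of all 3 probe sets of Aldh1a3 and both of Rarg on each array, with the background limit of each array as a black tick. Only the brightest probe set of each gene stands clear of the limits, and the second Rarg probe set exceeds its limit on whole body array 2 alone.

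Both other Aldh1a3 probe sets gave the same order of condyle over fossa, without overlap, close to background. One measured 2.93 to 3.05 in condyle and 2.39 to 2.53 in fossa, a difference of 0.55 ± 0.11 (adjusted p = 0.0202). The other measured 2.88 to 2.91 in condyle and 2.58 to 2.68 in fossa, 0.27 ± 0.09 apart (adjusted p = 0.0955). Fossa minus whole body was -0.67 (adjusted p = 0.00899) for the first, with fossa at background and 1 whole body array above it, so no fold is given. For the second, fossa and whole body were both at background and no difference is given. Of all probe sets, 16% were called between condyle and fossa, 16.8% between fossa and whole body and 6.19% between condyle and whole body. Against whole body the condyle differences of these probe sets were -0.12 and -0.14, opposite in sign to that of the brightest one, and did not pass.

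Aldh1a1, an enzyme of liver, eye and other organs, was brightest in the whole body. It measured 4.99, 5.55 and 7.87 there, 2.00, 3.54 and 4.77 in fossa, and 2.56, 2.92 and 2.65 in condyle, where it was at background. Every joint array lay under every whole body array, but the spread inside fossa and whole body was wide. Whole body was at least 9.45-fold above condyle (adjusted p = 0.0784) and 6.50-fold above fossa (adjusted p = 0.0897), which did not pass. Fossa array 1 was under its background limit of 3.52, so the size against fossa rests partly on a value at background. With the common floor the log2 differences from whole body were -2.62 in condyle (adjusted p = 0.182) and -2.19 in fossa (adjusted p = 0.274). Leaving out 1 array moved the log2 difference between condyle and whole body from -4.00 (without whole body array 1) to -2.57 (without whole body array 3). It moved that between fossa and whole body from -3.36 (without fossa array 3) to -1.84 (without whole body array 3). The condyle difference passed when only probe sets above background on at least 3 arrays were fitted (adjusted p = 0.0257). It also passed with 1 value per gene (adjusted p = 0.0485) or the probe set mean per gene (adjusted p = 0.0495). The fossa difference passed in the first of these settings (adjusted p = 0.0496). Neither passed after quantile normalization (adjusted p = 0.103 and 0.104) or when any 1 array was left out. Of the 6 liver markers, 5 were lower in each joint tissue than in whole body. The summed intensity of all 6 was 70037 to 80049 in whole body, 962 to 38600 in condyle and 50 to 34276 in fossa. The highest joint sums came mostly from Ttr, the marker that did not pass. It measured 15.23 on condyle array 3 and 15.06 on fossa array 3, against 14.69 to 14.88 in whole body. The part of the liver markers in the Aldh1a1 difference was not tested.

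Aldh1a2, the main synthesis enzyme of embryonic mesoderm and of the meninges, measured 4.45, 5.50 and 5.18 in whole body, 3.15, 3.29 and 3.14 in fossa, and 5.47, 3.36 and 3.61 in condyle. The fossa arrays lay under all whole body arrays, while condyle array 1 stood within the whole body range and the other condyle arrays near the fossa values. Fossa and whole body differed by -1.85 ± 0.56 (adjusted p = 0.0656), which passed without condyle array 1 (adjusted p = 0.00948). Condyle and whole body differed by -0.89 ± 0.56 (adjusted p = 0.316), and by -1.55 without condyle array 1. That array also held the highest condyle sums of bone markers (23652 against 5146 and 5316) and of macrophage markers (2624 against 213 and 254). The meningeal marker sum was 1061 on it and 339 and 1880 on condyle arrays 2 and 3. Zic1, the brightest of these markers in condyle, measured 9.17, 7.96 and 10.81 on condyle arrays 1, 2 and 3. Ptgds (8.75, 6.06 and 5.83), Foxc1 (4.60, 2.84 and 2.72) and Foxd1 (4.55, 3.57 and 3.89) were highest on condyle array 1. Slc6a13 was at background in condyle. The part of all these markers in the Aldh1a2 value was not tested.

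The binding proteins were the brightest probe sets among the members, although levels cannot be set against each other between probe sets. Crabp1 (chr9:54764748-54773110) is known from neural crest derived mesenchyme of the face. It measured 9.19, 9.12 and 8.39 in condyle, 7.29, 7.30 and 7.13 in the fossa and 8.07, 7.88 and 7.23 in whole body. The condyle arrays lay above all 6 others, and the fossa arrays lay close together.

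The means of Crabp1 were 8.90 ± 0.44 (SD, n = 3) in condyle, 7.24 ± 0.10 in the fossa and 7.73 ± 0.44 in whole body. Condyle exceeded fossa 3.17-fold (adjusted p = 0.00995), and the adjusted p was 0.00745 to 0.037 when any 1 array was left out. It missed the threshold after quantile normalization, where the difference was 1.03 (adjusted p = 0.0825). The condyle difference from whole body was 1.18 ± 0.28, just outside the threshold (adjusted p = 0.0572). It passed with each array centred on its median (1.29, adjusted p = 0.0356), with 1 value per gene (adjusted p = 0.035), and without condyle array 3 (1.43, adjusted p = 0.0387). The filter on dim probe sets, the probe set mean and the replicate block also gave a pass (adjusted p = 0.0254, 0.0357 and 0.0309). After quantile normalization, with the common floor and with the compared groups alone it missed (adjusted p = 0.148, 0.114 and 0.137). Without any other single array it missed too, with an adjusted p of up to 0.164. Fossa and whole body differed by -0.49 ± 0.28 (adjusted p = 0.281).

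Other markers moved with the condyle and fossa contrast in different ways. Clic6, listed as a choroid plexus marker, was 8.45 to 9.05 in condyle and 2.64 to 5.77 in fossa, while the choroid plexus markers Kl, Folr1 and Otx2 were at background in all 3 groups. Ttr, the other measured marker of that list, was 15.23 on condyle array 3 and 15.06 on fossa array 3, and 4.24 to 11.77 on the other joint arrays. For the epithelial list, fossa arrays 1 and 3 had sums inside the condyle range, and fossa array 2 had a sum under it. Single epithelial markers could differ from the sum. Epcam, the 1 of the 10 that passed between condyle and fossa (1.17 ± 0.12, adjusted p = 0.00194), measured 4.78 to 5.24 in condyle and 3.69 to 3.81 in fossa, without overlap. The part of these markers in the Rarg and Crabp1 differences was not tested.

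**Figure D3:**
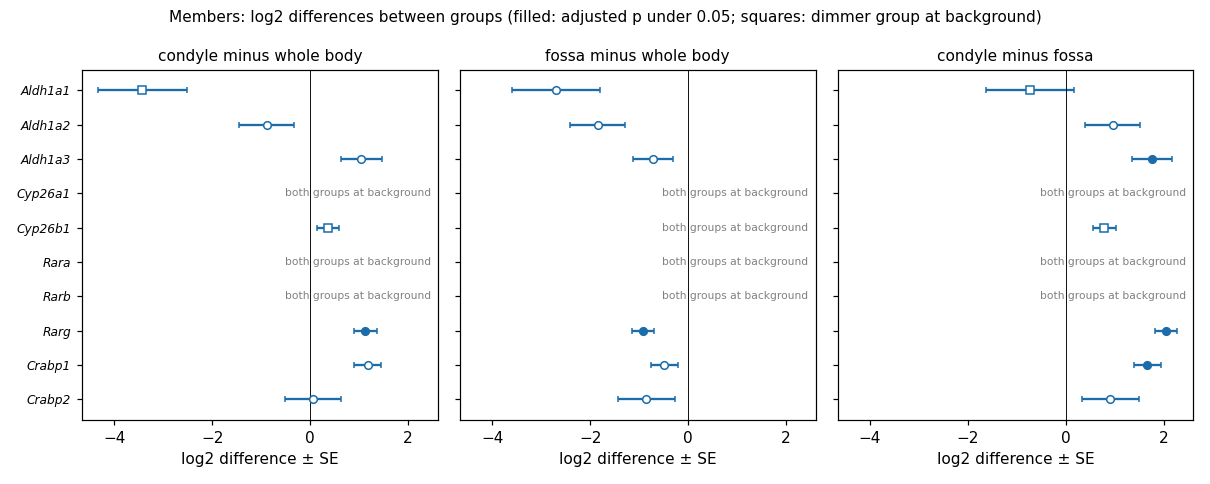
Log2 differences between groups with standard errors from the limma fit, for the brightest probe set of each member. Filled symbols passed the threshold, squares have a dimmer group at background, and Rarg passed in all 3 comparisons, with condyle above whole body and fossa under it.

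Crabp2, a carrier that hands retinoic acid to its receptors and is known from skin, did not differ between groups beyond their spread. It measured 6.52, 7.44 and 6.09 in condyle, 6.996, 4.78 and 5.56 in the fossa and 6.64, 6.54 and 6.71 in whole body. All 3 groups overlapped, and the spread in the joint tissues was large, with SDs of 0.69 in condyle and 1.12 in fossa against 0.08 in whole body. Condyle and fossa differed by 0.91 ± 0.58 (adjusted p = 0.348), condyle and whole body by 0.05 ± 0.58 (adjusted p = 0.952), and fossa and whole body by -0.85 ± 0.58 (adjusted p = 0.362).

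Crabp2 and the epithelial marker sum shared their extreme arrays but not the order of the rest. The lowest Crabp2 value was on fossa array 2, where the epithelial sum was 598, and the highest on condyle array 2, where it was 20084. Fossa array 1 was second in both, with 6.996 for Crabp2 and a sum of 15071. Over the other 6 arrays the order was not shared. The whole body arrays had 6.54 to 6.71 for Crabp2 with sums of 6542 to 6801, and condyle array 1 had 6.52 with 7863. Condyle array 3 had a lower Crabp2 value, 6.09, with a higher sum, 11093. Fossa array 3 was under condyle array 3 in both, with 5.56 and 10253. The condyle minus fossa difference of Crabp2 was 0.41 without fossa array 2 and 1.51 without fossa array 1 (adjusted p = 0.661 and 0.0758). The part of epithelium in these values was not tested.

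**Figure D4:**
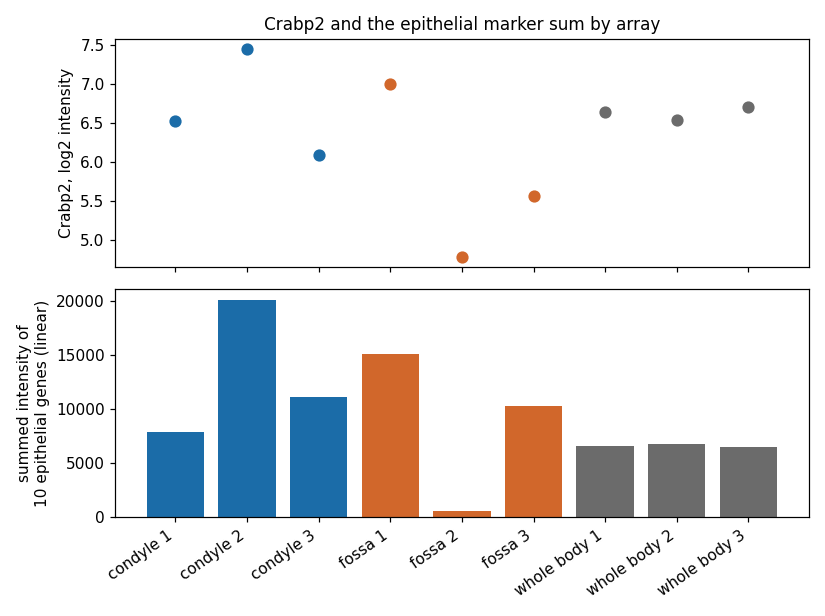
Log2 intensity of Crabp2 (top) and the summed linear intensity of 10 epithelial marker genes (bottom) on each array. Fossa array 2 is lowest in both, at 4.78 and 598, and condyle array 2 highest, at 7.44 and 20084. Dsp and Perp, the brightest of these marker genes, weigh most in the sum.

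Other retinoid genes were counted in 3 lists, each gene by its brightest probe set. Against fossa, condyle was higher in 2 of 15 uptake and conversion genes, 2 of 8 nuclear partners and coregulators, and 1 of 14 textbook targets, and lower in 0 of each, beside 16.2% of all genes called higher. At an unadjusted p under 0.05 these were 4, 5 and 3 higher and 2, 0 and 1 lower. The medians were 0.37, 0.58 and 0.22, beside 0.21 for all genes. Against whole body, condyle was higher in 0 and lower in 1, 0 and 1 (unadjusted 1, 3 and 1 higher and 3, 0 and 3 lower). Of all genes, 7.05% were called higher there, 2.91% lower and 9.96% in either direction. Fossa was lower in 3, 1 and 4 and higher in 0 of each (unadjusted 3, 5 and 4 lower and 2, 0 and 1 higher), beside 15.9% of all genes called lower.

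Rdh10, the enzyme that makes the retinaldehyde on which the Aldh1a enzymes act, was low in fossa alone. It measured 6.54, 6.17 and 6.85 in condyle, 4.59, 5.11 and 5.23 in fossa, and 6.04, 6.68 and 6.81 in whole body. Condyle exceeded fossa 2.91-fold (adjusted p = 0.0127) and whole body exceeded fossa 2.90-fold (adjusted p = 0.0115), while condyle and whole body differed by 0.01 (adjusted p = 0.989). Rdh10 was the 1 pathway gene that still passed between condyle and fossa after quantile normalization. Its second probe set had the same directions and did not pass.

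Rbp4, the retinol carrier that liver secretes into blood, was lower in both joint tissues than in whole body, with differences of -3.74 ± 0.36 in condyle and -5.19 ± 0.36 in fossa (adjusted p = 0.00275 and 0.000267). Rarres2, a retinoid-induced gene that encodes chemerin, had differences of -1.89 ± 0.28 and -3.11 ± 0.28 (adjusted p = 0.013 and 0.000854). Both were also higher in condyle than in fossa, Rbp4 2.73-fold (adjusted p = 0.0362) and Rarres2 2.33-fold (adjusted p = 0.0299). Adh5, an alcohol dehydrogenase, was lower in fossa than in whole body, with a difference of -1.26 ± 0.16 (adjusted p = 0.00332). The liver marker sums given above were likewise lower in joint tissue than in whole body, and their part here was not tested.

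**Figure D5:**
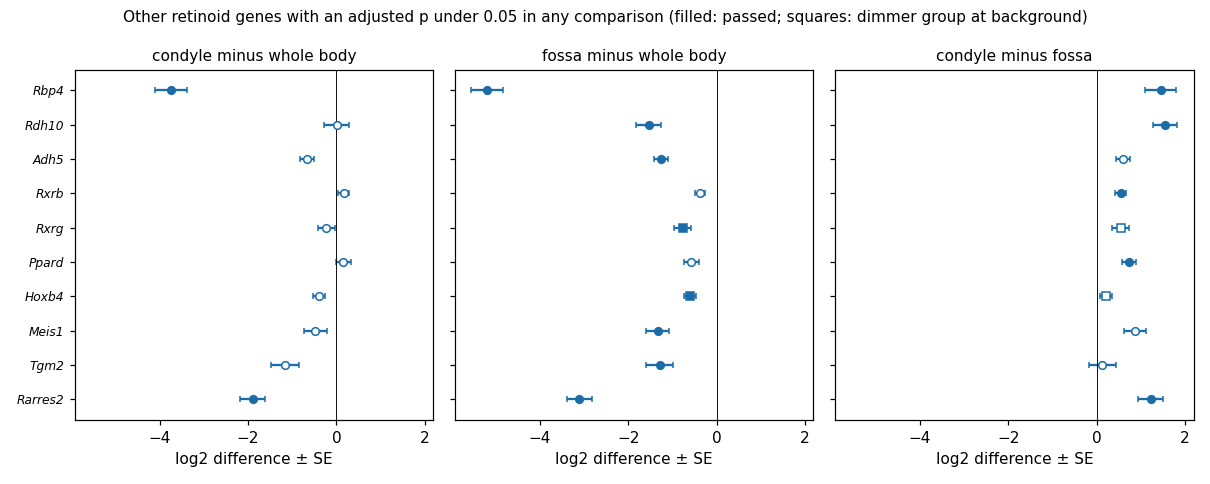
Log2 differences between groups with standard errors from the limma fit, for the 10 other retinoid genes that passed in any comparison. Rbp4 and Rarres2 are the farthest under whole body, and Rdh10 is lower in fossa than in both other groups.

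Among nuclear partners, Rxrb, an RXR receptor, was 1.45-fold higher in condyle than in fossa (adjusted p = 0.0262). Ppard, a receptor that can also take up retinoic acid, was 1.66-fold higher there (adjusted p = 0.0285). For Ppard only 1 fossa array was above background, so this fold rests on values near the limit. Neither gene passed with the common floor. Rxrg was at background in fossa and at least 1.09-fold higher in whole body (adjusted p = 0.0369). Rxra differed by 1.13 between condyle and whole body, the coactivator gene Ncoa1 by 1.10 and Ncoa3 by 0.71, and Ncoa2 by 0.69 between condyle and fossa, none past the threshold (adjusted p = 0.123, 0.0656, 0.177 and 0.103). Of the textbook targets, Meis1 was lower in fossa than in whole body, with a difference of -1.34 ± 0.25 (adjusted p = 0.0131), and Tgm2 with one of -1.29 ± 0.31 (adjusted p = 0.0319). Hoxb4, a trunk patterning gene, was at background in fossa and at least 1.12-fold higher in whole body (adjusted p = 0.0243). Among targets that did not pass were Nr2f1, with 1.16 between condyle and whole body (adjusted p = 0.249), and Nr2f2, with 1.06 between condyle and fossa (adjusted p = 0.273). Dhrs3, which turns retinaldehyde back to retinol, differed by 1.01 between condyle and whole body (adjusted p = 0.193), and Meis2 by -0.86 between fossa and whole body (adjusted p = 0.405).

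Some uptake and conversion genes outside the threshold varied more between arrays of 1 group than between groups. Rdh12 measured 5.80 on condyle array 2 and 2.56 to 3.32 on the 8 other arrays. Adh1, an alcohol dehydrogenase that oxidises retinol, was lowest on fossa array 2 (7.01) and highest on condyle array 2 (11.03), the arrays that were also lowest and highest in Crabp2 and in the epithelial sum. Rdh11 was at background in fossa, where it measured 2.58 to 3.45, and was at least 1.31-fold higher in condyle than in fossa (adjusted p = 0.122).

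The genes whose profile over the 9 arrays was nearest to that of a member were listed for Rarg and Crabp1, which passed the moderated F test for any difference among the 3 groups (adjusted p = 0.00373 and 0.0148, beside 27.1% of all genes and 21.1% of all probe sets). For Rarg they were Lrrc41, Zc3h14 and Snrnp200, with Pearson's r of 0.985, 0.981 and 0.980. For Crabp1 they were Nlrx1, Phpt1 and Serinc2, with r of 0.985, 0.981 and 0.977. They were the nearest out of 18695 probe sets above background on at least 3 arrays. All 6 had the order condyle, whole body, fossa in their means, which follows from choosing them by likeness to members of that order. Nlrx1 was above background on 4 of the 9 arrays and Serinc2 on 5. Overall brightness differed between arrays, with the fossa arrays dimmer in their upper range. Such a difference can enter the profiles of many genes at once, so these values describe the profiles and carry no test.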

How the data were processed

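RNA from 9 laser-captured samples was hybridised to an Affymetrix mouse array, per the labels' protocols. The deposited table holds the authors' linear intensities, from 3.25 to 67158.9. The submitters' processing notes name limma without a version or role. The authors' background correction, normalization and probe summary are not given in the sources used here. Values were converted to log2 as deposited. Probe sets were named from the platform annotation: 34945 had 1 symbol, 932 several and 9160 none, and 64 controls were left out. The limma fit (version 3.58.1, R 4.3.3; lmFit, eBayes, 6 residual degrees of freedom) used all 9 arrays and 3 groups, with Benjamini-Hochberg adjustment over 45037 probe sets at 0.05. It was tested on simulated data. A gene takes the call of its brightest probe set, by mean over all arrays. A fold is "at least" where the dimmer group was at background, computed from the higher of limit and value. Named genes were the members, pathway genes past the threshold, and up to 4 others per list with the largest differences, and the 3 genes closest in profile to each member past the F test. Members and lists were chosen with earlier results of these data known. Alternatives were quantile normalization, median centring, a common floor, a filter on dim probe sets, 1 value or the probe set mean per gene, a replicate block, the compared groups alone, and leaving out each array. The number of arrays limits the precision. Some genes of the lists are not analysed here.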

Additional observations from a re-analysis of the deposited data

Results flagged for a closer look

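For Rarg, Aldh1a3 and Crabp1 the brightest probe set had a mean above whole body in condyle and under it in fossa, and the joint tissues differed from each other by test. That difference, condyle minus fossa on the log2 scale, was 2.05 for Rarg, 1.76 for Aldh1a3 and 1.66 for Crabp1. For Rarg every condyle array lay above and every fossa array under the whole body arrays. For Aldh1a3 fossa array 2 lay above the whole body arrays, and for Crabp1 the fossa and whole body arrays overlapped. Against whole body, neither joint tissue passed for Aldh1a3 (adjusted p = 0.189 and 0.28) or Crabp1 (adjusted p = 0.0572 and 0.281). The other 2 Aldh1a3 probe sets had condyle under whole body (-0.12 and -0.14), and the fossa difference of Crabp1 was -0.03 after quantile normalization.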

How the results depend on the processing

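The Rarg difference between condyle and fossa passed under every alternative run. The count of members called there, 3, became 1 after quantile normalization and 2 with the common floor or the compared groups alone. The count for condyle against whole body, 1, became 0 after quantile normalization, with the common floor and with the compared groups alone (limma; 3, 4 and 4 at an unadjusted p under 0.05), 2 after median centring or with the probe set mean, and 3 with the filter on dim probe sets or 1 value per gene. For fossa against whole body, 1 became 0 after quantile normalization, with the common floor and with the replicate block (3, 3 and 4 unadjusted), 2 after median centring and 3 with the filter or the compared groups alone. The F test count, 2, became 1 after quantile normalization or with the floor and 4 with the filter or the block. Leaving out 1 array gave 2 to 3 members in the F test and 2 to 3 for condyle against fossa. It gave 0 to 2 for condyle against whole body and 0 to 2 for fossa against whole body. Equal counts could hide other members. The F test called Aldh1a2 and Rarg without condyle array 1, and Cyp26b1 and Rarg without condyle array 2. With the probe set mean it called Aldh1a1, Aldh1a3 and Crabp1. Crabp2 turned from 0.05 to -0.37 between condyle and whole body after quantile normalization, and ranged from -0.33 (without condyle array 2) to 0.35 when 1 array was left out. Pathway genes called numbered 5 for condyle against fossa (1 after quantile normalization or with the floor; 2 to 6 without 1 array), 2 for condyle against whole body (4 with the filter, 1 value per gene or the compared groups alone, 5 with the probe set mean; 2 to 5) and 8 for fossa against whole body (4 with the floor; 6 to 9). Probe sets called numbered 7206, 2790 and 7583 in that order. They were 1765, 1522 and 2094 with the floor. Condyle against whole body had 1765 after quantile normalization and 1659 with the block, and fossa against whole body had 13352 after median centring. Without 1 array the ranges were 4319 to 8084, 1520 to 3043 and 4796 to 7390. Higher probe sets made up 74.9%, 68.0% and 21.9% of calls as deposited, 52.5%, 47.6% and 47.4% after quantile normalization, and 62.7%, 78.6% and 67.5% after median centring. Quantile normalization moved the median of all genes between condyle and fossa from 0.21 to -0.01, and between fossa and whole body from -0.11 to 0.00. The cause of these changes was not tested. Same-numbered arrays correlated at -0.355 to 0.116 in their deviations from the group means, and arrays of unlike number at up to 0.435. With 3 arrays per group these values cannot decide whether equal numbers share an embryo, which the labels do not state. With the block, Rarg missed the threshold against whole body in condyle (adjusted p = 0.0757) and fossa (0.0633), and Crabp1 passed in condyle (0.0309), which keeps that count at 1. The replicate block changed the probe set counts to 5222 for condyle against fossa and 5809 for fossa against whole body.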
